A study of Mus musculus with 24 samples.

Results

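Cytosine methylation 25 days after the start of a doxycycline pulse was compared with that before the pulse in the miR-203 knock-in iPS clones N5 and N9, on autosomes. The 4 libraries (N5 and N9 at day 25, N5 and N9 at t=0) cover 8 of the 24 samples of the series, because each library was sequenced in 2 lanes and each lane is a sample. They were taken by their cell type labels, not by any measured value. Wild-type iPS cells at day 25 and at t=0, 1 library each from 4 samples, gave the background, since their labels give the same stages, doxycycline included, without the knock-in.

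The groups are as follows. The day 25 clones carry an inducible miR-203 knock-in (miR-203 tKI in the submitters' design text), had doxycycline for 5 days to switch the microRNA on, and were then kept without it for 20 days. The t=0 clones are the same 2 lines before doxycycline. Wild-type day 25 and t=0 cells lack the knock-in. All cells were mouse iPS cells grown over feeder cells in medium with 20% serum replacement, and each knock-in line is 1 clone, so the spread given here is that between 2 clones. No label gives the parental strain, the sex of the cells or the promoter that drives the knock-in. The DNA was oxidised before bisulfite conversion, so that 5-hydroxymethylcytosine is read as unmethylated and a methylated call stands for 5-methylcytosine. N5 was sequenced on another flow cell than N9 and the wild type at both stages, so clone and flow cell cannot be told apart, while the comparison of day 25 with t=0 lies within a flow cell for each clone.

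In mammals, methylation of the cytosine in a CpG is copied to the new DNA strand after replication by Dnmt1, which Uhrf1 guides to hemimethylated sites. Dnmt3a and Dnmt3b, with the cofactor Dnmt3l, place new marks, and the Tet dioxygenases oxidise them. Most of the genome is methylated, while CpG-dense promoters are usually free of it, and mouse pluripotent cells can hold very different overall levels depending on their culture. miR-203 is a microRNA best known from the differentiation of skin.

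Autosomal methylation was lower at day 25 in both clones and not in the wild type. Over the 12526381 autosomal CpGs with a call in every library of the series, at day 25 N5 had 48.6% and N9 47.9% methylated calls, against 65.1% in N5 and 65.2% in N9 at t=0. The level therefore fell by 16.5 percentage points in N5 and by 17.3 in N9 (mean change -16.9 ± 0.555, SD of 2 clones), and the clones kept 74.7% and 73.5% of their starting level. The share kept, used throughout, is the level at day 25 divided by the level at t=0. Wild-type cells had 61.2% at day 25 and 60.7% at t=0. The fall was larger than the difference between clones, but 2 libraries against 2 cannot give a two-sided exact permutation p below 0.333.

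**Figure D1:**
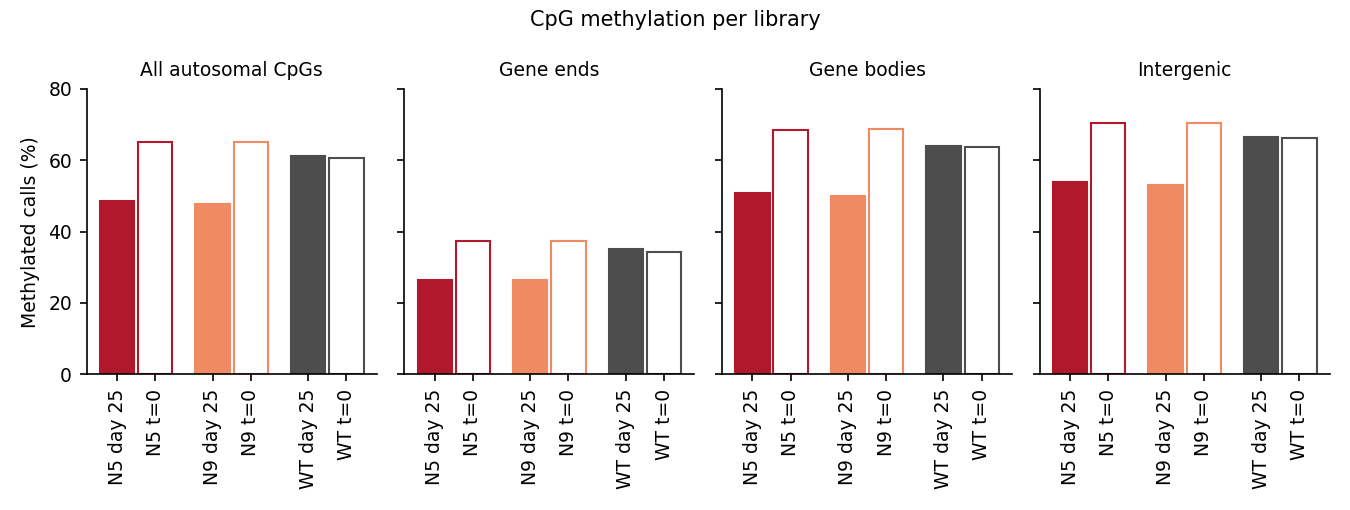
Bars show the percentage of CpG calls that were methylated in each library (filled at day 25, open at t=0) for all autosomal CpGs, CpGs within 1000 bp of an annotated gene end, CpGs in gene bodies and intergenic CpGs. In every panel both clones are lower at day 25 than at t=0, while the wild type differs by less than 1 point.

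Mean coverage per CpG was 8.74 and 5.57 calls in N5 and N9 at day 25 and 5.42 and 5.91 at t=0, against 4.70 and 6.08 in wild-type cells at day 25 and t=0. Each of the 19 autosomes fell by 16.1 to 16.8 points in N5 and by 16.8 to 17.5 points in N9. Chromosome 8 had 1.38 and 1.38 times the median autosomal coverage in N5 and N9 at day 25 and 1.36 and 1.36 times at t=0, against 1.05 and 1.00 times in wild-type cells at day 25 and t=0. The first 4000000 bp of chromosome Y had 0.0128 and 0.0106 of the coverage of chromosome 5 in N5 and N9 at day 25 and 0.0380 and 0.0392 at t=0, against 0.0015 and 0.0018 in the wild type. This Y coverage moves with the comparison, and its part in the fall was not tested. Of 20 fibroblast genes, chosen because feeder cells are commonly fibroblasts, the median level at the gene end was 16.7% at day 25 and 16.5% at t=0 in the clones, with a median change per gene of -1.63 points. Mitochondrial CpGs, which should read as almost unmethylated, had 0.526% and 0.156% methylated calls in clones N5 and N9 at day 25, against 0.462% and 0.417% at t=0. The N5 value at day 25 rests on 1330 mitochondrial calls, against 19864 in N9 at day 25, 39830 in N5 at t=0 and 26612 in N9 at t=0.

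Promoter sequences show what the measured sites look like. The 300 bases around a transcription start (250 before it, 50 after it) were read for 31365 autosomal promoters of the RefSeq table on GRCm38.p6, and all 395016 CG in them lie at CpG positions of the deposited table. In 3 classes of CG number, 1 promoter is printed of those at 60 to 80% in both clones at t=0, the one whose mean change lay nearest the class median. They were taken from 96 promoters with 3 to 5 CG, 113 with 6 to 9 and 23 with 10 to 14, leaving out predicted, Rik, odorant and vomeronasal receptor genes. A CG-rich, unmethylated promoter follows, that of the listed gene with the most calls in its shallowest library. CG is in capitals, and each run reads 5′ to 3′ on the gene's strand.
Cacna1d, 4 CG, chr14:30491107-30491406, minus strand: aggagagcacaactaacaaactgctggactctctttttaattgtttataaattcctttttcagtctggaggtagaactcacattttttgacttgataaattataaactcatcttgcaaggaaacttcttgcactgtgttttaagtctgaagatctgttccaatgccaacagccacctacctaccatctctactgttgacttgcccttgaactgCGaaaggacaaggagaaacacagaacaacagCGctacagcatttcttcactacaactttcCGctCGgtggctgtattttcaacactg
Ffar1, 9 CG, chr7:30861421-30861720, minus strand: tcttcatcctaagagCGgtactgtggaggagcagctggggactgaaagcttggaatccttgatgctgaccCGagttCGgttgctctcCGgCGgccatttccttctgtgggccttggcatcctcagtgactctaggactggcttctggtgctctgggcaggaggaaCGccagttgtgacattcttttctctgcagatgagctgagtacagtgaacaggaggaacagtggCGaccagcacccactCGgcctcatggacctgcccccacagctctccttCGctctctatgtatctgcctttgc
Ptprr, 12 CG, chr10:116177101-116177400, plus strand: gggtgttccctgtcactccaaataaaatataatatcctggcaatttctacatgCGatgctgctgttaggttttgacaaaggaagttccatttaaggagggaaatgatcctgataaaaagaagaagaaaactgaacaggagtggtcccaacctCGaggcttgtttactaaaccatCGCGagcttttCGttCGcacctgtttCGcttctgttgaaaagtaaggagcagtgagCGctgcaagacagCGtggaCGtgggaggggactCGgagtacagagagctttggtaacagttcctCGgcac
Tubb3, 26 CG, chr8:123411303-123411602, plus strand: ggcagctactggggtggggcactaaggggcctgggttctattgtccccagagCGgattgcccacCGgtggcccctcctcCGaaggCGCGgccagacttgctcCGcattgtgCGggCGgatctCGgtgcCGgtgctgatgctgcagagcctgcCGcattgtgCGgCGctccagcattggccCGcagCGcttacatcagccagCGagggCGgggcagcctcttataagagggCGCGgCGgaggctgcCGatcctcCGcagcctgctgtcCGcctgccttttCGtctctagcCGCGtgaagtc

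The promoter of Cacna1d, a voltage-gated calcium channel gene, had 51.7% and 52.9% methylated calls in clones N5 and N9 at day 25, against 75.8% and 69.4% at t=0. That of Ffar1, a fatty acid receptor gene, had 49.4% and 47.6% at day 25, against 67.9% and 68.3% at t=0. That of Ptprr, a receptor tyrosine phosphatase gene, had 38.4% and 52.3% at day 25, against 68.9% and 70.5% at t=0. At day 25 N5 and N9 lay closest at Cacna1d and farthest apart at Ptprr. Wild-type cells had 42 of 60 methylated calls at day 25 and 35 of 54 at t=0 at Cacna1d, and 55.9% at day 25 and 55.6% at t=0 at Ffar1, but 49.4% at day 25 and 67.8% at t=0 at Ptprr, so that there the wild type was lower at day 25 too. Each of these promoters rests on 33 to 193 calls per library, and the 95% Wilson intervals of single libraries span 12.8 to 31.8 points. The promoter of Tubb3, a neuronal tubulin gene, had 0 of 408 methylated calls in N5 and 1 of 246 in N9 on day 25, against 4 of 436 in N5 and 0 of 391 in N9 at t=0. At that depth 0 calls allow a level of up to 0.735% in N5 at day 25 and 0.767% in N9 at t=0, so no difference was detectable. Intervals and limits here cover counting error only.

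Over all promoters with at least 30 calls in each of the 6 libraries (15943), the same reading was made in classes. Among promoters at 60% or more at t=0 in the other clone, those with 3 to 5 CG kept 76.6% of their level in N5 and 75.5% in N9. Those with 6 to 9 CG kept 74.9% and 72.6%, and those with 10 to 14 CG kept 73.1% and 69.9%. The few promoters with 15 to 24 CG (26 for N5 and 24 for N9) did not continue this order, with 78.2% and 73.5% kept. Wild-type promoters of the first 3 of these classes kept 99.5%, 99.7% and 99.1%. At 20 to 60% in the other clone, the same 3 classes kept 61.0%, 60.1% and 61.4% in N5, without that order. In N9 they kept 58.5%, 56.4% and 52.8%. Under 20% the share kept was higher with more CG. There promoters with 3 to 5 CG kept 45.2% in N5 and 39.7% in N9, and those with 15 to 24 CG kept 58.7% and 55.6% of a level near zero. At any starting level, promoters with 25 CG or more had 0.278% and 0.266% at day 25, against 0.374% and 0.383% at t=0, and the wild type had 0.356% at day 25 and 0.357% at t=0. Mitochondrial CpGs of N5 and N9 read 0.526% and 0.156% at day 25 and 0.462% and 0.417% at t=0. Whether background calls had a part in this small fall was not tested.

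The first question on how the loss is spread is whether it was the same share of the starting level everywhere. It was not: regions that started low lost a larger share than regions that started high, in both clones. Autosomes were cut into 10 kb tiles, and the tiles of 1 clone were sorted by the t=0 level of the other clone, so that the calls that place a tile are not those in which its change is measured. Tiles at 10 to 20% kept 61.8% in N5 and 63.4% in N9. Tiles at 30 to 40% kept 66.1% and 65.4%, tiles at 60 to 70% kept 73.1% and 71.6%, and tiles at 80 to 90% kept 80.4% and 78.8%. The share kept was thus 13.8 ± 0.598 points higher at 80 to 90% than at 30 to 40% (SD of 2 clones). In wild-type cells, sorted by the clones' t=0 level, every one of these classes kept between 100.2% and 103.3%.

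In percentage points, with tiles sorted by the other clone, the largest losses lay at 60 to 70%. This depends on the sorting: by the clones' own mean level at t=0, the median tile changed by -16.5 points at 50 to 70% and by -17.0 at 70 to 100%. Tiles that started at 10 to 20% fell by 6.03 points in each clone. The change of tiles that started at 60 to 70% was -18.0 points for N5, and for N9 it was -19.01 points. Tiles that started at 80 to 90% fell by 15.7 and by 17.0 points, and the 381 tiles sorted into 90 to 100% for N5 fell by 11.4 points. Single CpGs with at least 10 calls in the other clone gave the same order, as a choice made after seeing the data. CpGs with every such call methylated kept 81.8% in N5 and 80.3% in N9, those with 1 to 2 in 3 methylated kept 68.6% and 66.8%, and those with under 1 in 3 kept 49.5% and 46.8%. CpGs with no methylated call in the other clone had 0.93% and 0.95% at day 25, against 2.08% and 2.27% at t=0.

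**Figure D2:**
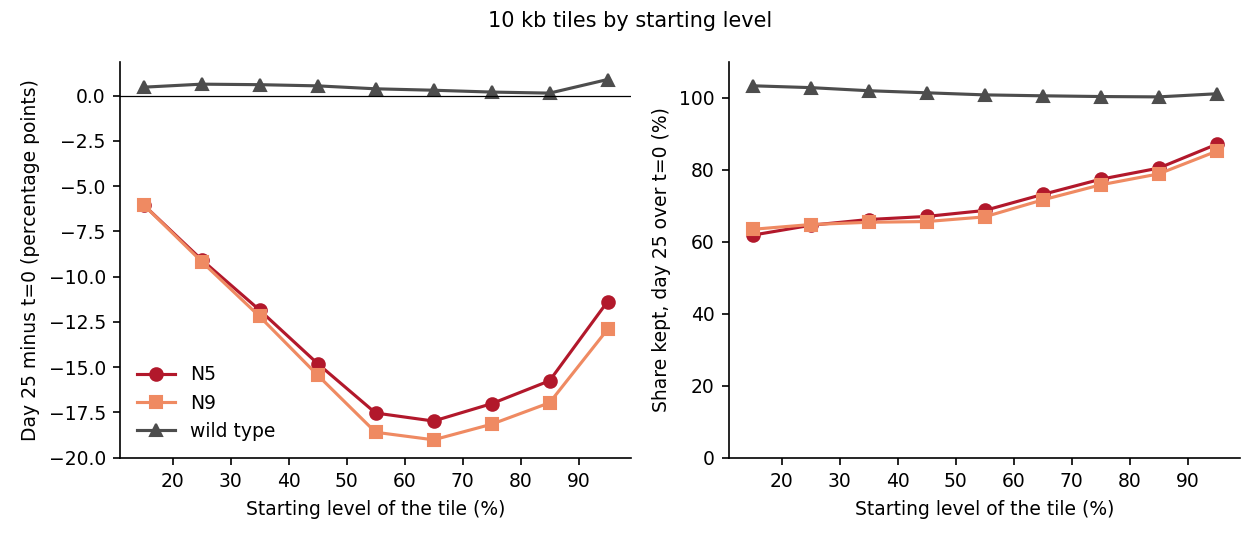
Change in percentage points (left, day 25 minus t=0) and share kept (right) of 10 kb autosomal tiles against their starting level, for clones N5 and N9 (sorted by the other clone) and the wild type (sorted by the clones). The loss is deepest at 60 to 70%, where the clones changed by -18.0 and -19.01 points, while the share kept climbs from the low to the high classes and the wild type stays near 100%.

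CpG density had its own pattern. CpGs with few neighbours kept more of their methylation than CpGs in dense stretches. CpGs with 1 to 2 CpGs within 500 bp (a window of that length centred on each CpG, itself included) kept 77.8% in N5 and 76.5% in N9, those with 5 to 6 kept 76.2% and 74.5%, those with 10 to 14 kept 72.7% and 70.6%, and those with 20 to 29 kept 64.7% and 63.0%. The share kept was 11.5 ± 0.028 points lower at 20 to 29 than at 5 to 6 CpGs. The densest CpGs, with 30 or more, are mostly unmethylated at any stage. They had 0.776% and 0.741% at day 25, against 1.34% and 1.31% at t=0, so that they kept 58.0% and 56.4% of a very low level. Wild-type CpGs kept 100.1% to 101.1% over the same classes.

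Dense CpGs also start lower, so density was read at matched starting levels. Within tiles at 60 to 70%, CpGs with 5 to 6 CpGs within 500 bp kept 74.2% in N5 and 72.5% in N9, while CpGs with 20 to 29 kept 60.7% and 57.7%. Within those tiles the dense CpGs still started lower, at 44.4% and 43.4%, than the sparser ones at 69.3% and 69.4%. Bins of 500 bp sorted by their own level and CpG number in the other clone, added after seeing the data, come closer to a match. In bins at 60 to 80%, those with 5 to 6 CpGs kept 76.0% and 74.4% from 73.6% at t=0 in both clones, and those with 20 to 29 CpGs kept 68.5% and 66.3% from 70.6% and 69.9%. In bins at 80 to 100% those with 5 to 6 CpGs kept 79.7% in N5 and 78.0% in N9, and those with 20 to 29 CpGs kept 79.5% and 76.8%. Density thus went with a smaller share kept in bins at 60 to 80%, and by little in bins at 80 to 100%. Promoters that started under 60% did not show this in both clones.

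**Figure D3:**
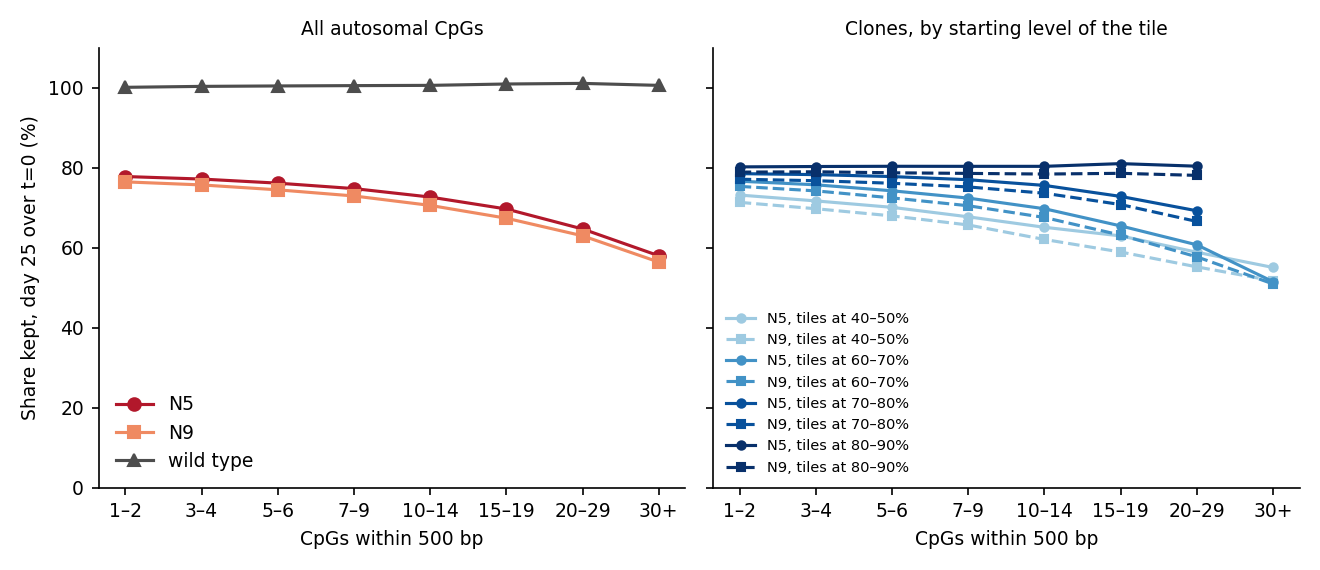
Share of methylation kept at day 25 by the number of CpGs within 500 bp, for all autosomal CpGs (left) and for the clones within tiles of 4 starting levels (right; N5 solid, N9 dashed). The share kept drops with density in all CpGs and in tiles at 40 to 80%, and stays between 80.2% and 81.0% in N5 and between 78.1% and 79.0% in N9 in tiles at 80 to 90%.

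Gene context went with smaller differences. Gene bodies kept 74.3% in N5 and 72.8% in N9, and intergenic CpGs kept 76.7% and 75.3%, so that bodies kept 2.40 points less (SD of 2 clones 0.099). CpGs within 1000 bp of an annotated gene end had 26.4% and 26.4% at day 25, against 37.3% and 37.5% at t=0, and kept 70.7% and 70.6%. Within intergenic sequence the share kept was higher farther from genes: CpGs under 5 kb from a gene end kept 74.4% and 73.0%, and those 100 to 500 kb away kept 79.5% and 78.1%. The difference between bodies and intergenic CpGs was also seen in tiles of like level: in tiles at 70 to 80%, bodies kept 76.6% and 74.9% and intergenic CpGs 78.5% and 77.0%. It was seen at like density too: with 7 to 9 CpGs within 500 bp, bodies kept 74.4% and 72.5% and intergenic CpGs 76.0% and 74.3%.

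Along genes, the loss was even outside the start. Over 10547 coding genes longer than 10 kb, cut into 10 equal parts from start to far end, the first part had 24.9% and 25.4% at day 25 against 35.6% and 36.1% at t=0, and part 6 had 52.8% and 51.7% at day 25, against 70.9% and 71.0% at t=0. From the second part to the last the share kept stayed between 73.4% and 74.6% in N5 and between 71.9% and 73.2% in N9. Around transcription starts, levels were lowest in the 250 bp just upstream, with 3.42% and 3.53% at day 25 and 5.20% and 5.34% at t=0. The share kept there was 65.8% and 66.1%, and in the next bin upstream 63.2% and 64.4%, while the bin farthest upstream kept 71.9% and 70.8%.

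**Figure D4:**
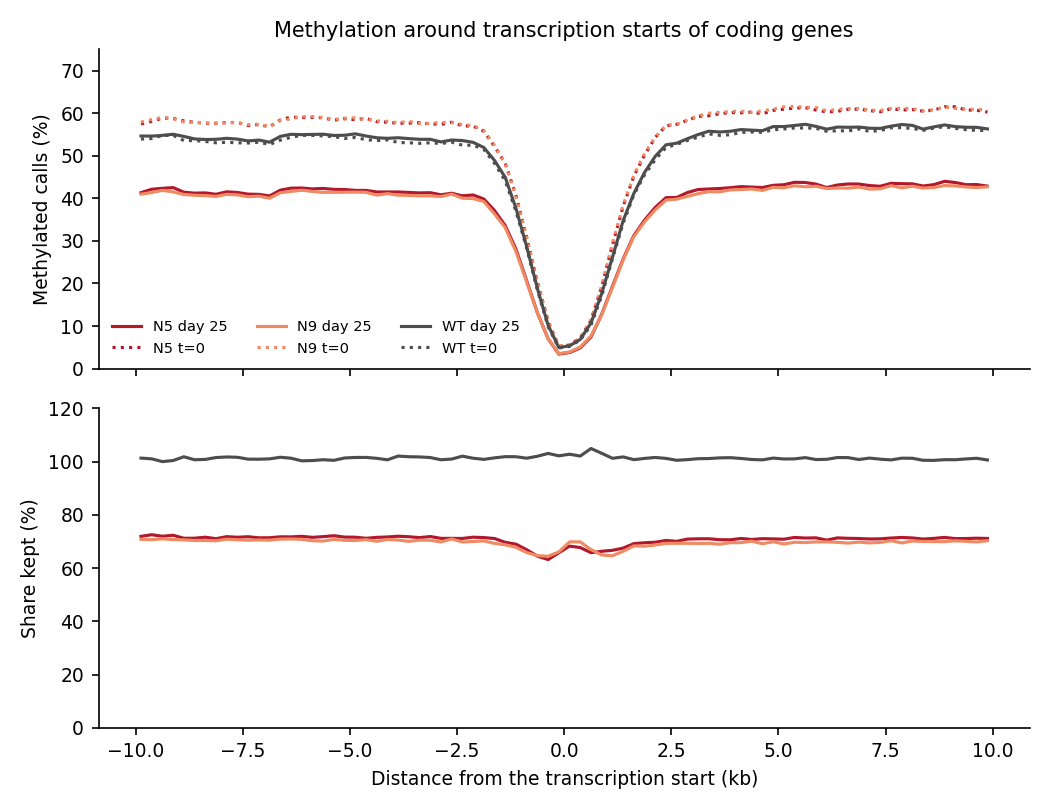
Methylated calls (top) and share kept (bottom) in 250 bp bins from 10 kb before to 10 kb after the transcription starts of coding genes, with day 25 as solid and t=0 as dotted lines. The clones' day 25 lines lie below their t=0 lines over the whole window, and the wild-type lines differ by at most 1.11 points.

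Tests were then run per feature with edgeR's quasi-likelihood test on methylated and unmethylated counts of all 12 libraries of the series, adjusted by Benjamini-Hochberg over all features of a kind, with 0.05 as the threshold. A gene end here spans 1000 bp each way from whichever annotated end of the gene holds more CpGs, so that some windows lie at a 3′ end. Nothing in the labels says that the clones stand for independent cultures beyond their names, so p-values measure the spread between these clone libraries. Wild-type groups have no replicate library and add nothing to that spread.

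Nearly all tiles and gene bodies fell. Of 233969 autosomal tiles, 224167 (95.8%) were lower at day 25 and 2 (0.000855%) were higher. Counted without a test, 99.0% of tiles were lower in both clones, while 48.4% were lower in the wild type. The median tile changed by -16.1 points in N5, -17.2 in N9 and 0.16 in the wild type, and the 10th and 90th percentiles were -22.5 and -9.05 in N5. Once the mean at each wild-type starting level was removed, the changes of N5 and N9 had a correlation of 0.226 over all these tiles and of 0.367 over the 127274 tiles with the most calls, as a description over tiles that share libraries. Of 16950 autosomal gene bodies, 16483 (97.2%) fell and 0 rose, with 0 higher by limma too, and 0 at an unadjusted p under 0.05. Of 19549 gene ends, 7904 (40.4%) fell and 3 (0.0153%) rose. Of the ends, 7907 were called in either direction, against 4055 without N5 at day 25, 4251 without N9 at day 25, 4461 without N5 at t=0 and 4226 without N9 at t=0, and limma on logit levels called 4845 ends.

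The change of each feature was then set against that of the wild type, of which there is 1 library a stage. The p-values of this comparison therefore assume that wild-type libraries vary as the clones do, which was not tested. The change in the clones was lower than the change in the wild type at 14751 bodies (87.0%) and 161307 tiles (68.9%), and higher at 0 bodies and 9 tiles (0.00385%). No body was higher at an unadjusted p under 0.05 either, and limma called 4 bodies higher. At gene ends the same test called 413 (2.11%) lower and 0 higher, while before adjustment 4938 were lower and 45 higher (p under 0.05). Limma called 0 ends, and edgeR called 106 without N5 at day 25, 7 without N9 at day 25, 131 without N5 at t=0 and 129 without N9 at t=0.

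More highly methylated ends were mostly called more often, with a dip at 50 to 70%, where 54.4% fell. Of 9759 ends under 10% at t=0, 24.04% fell (median -1.22 points). Of 985 ends at 30 to 50%, 61.4% fell (median -14.6 points), and of 3599 ends at 70% or more, 69.1% fell (median -18.0 points). Bodies over 50 kb fell almost without exception, with 3595 of 3596 at 50 to 200 kb and 934 of 935 over 200 kb. Bodies of under 10 kb fell in 91.3% of cases. The share called does not rank the size of the loss. The median change was -17.8 points under 10 kb, -18.7 at 10 to 50 kb, -18.2 at 50 to 200 kb and -16.8 over 200 kb. The median body over 200 kb kept 76.9% of its level, and the median body under 10 kb kept 70.6%.

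Body coordinates leave out the 1000 bp at either end. The gene bodies with the largest falls were those of Calr, Mief2, Krt42, Rfng, Tcl1, Twf1, Rbm4b and Abt1, chosen for their size of change among bodies with at least 200 calls in every clone library and 50% or more at t=0. The body of Calr (chr8:84843089-84845930), which encodes the ER chaperone calreticulin, had 30.1% and 25.5% in clones N5 and N9 at day 25, against 71.1% and 62.5% at t=0 (edgeR adjusted p = 1.72e-05). Its wild-type values were 49.4% at day 25 and 39.4% at t=0, the opposite direction. The body of Krt42 (chr11:100263883-100268950), a keratin gene, had 34.9% and 31.3% at day 25, against 70.8% and 67.1% at t=0 (adjusted p = 5.33e-07), with 55.7% at day 25 and 52.4% at t=0 in the wild type. The body of Tcl1 (chr12:105217754-105221736), an Akt coactivator expressed in mouse pluripotent cells, had 31.5% and 29.8% at day 25, against 68.1% and 63.9% at t=0 (adjusted p = 3.87e-07), with 47.3% at day 25 and 45.6% at t=0 in the wild type. Over the 8 bodies the mean fall was 34.9 to 39.0 points, and the adjusted p of the difference from the wild type's change lay between 7.46e-05 and 0.00514, in a test that 87.0% of all bodies passed. All 8 are shorter than 10 kb, as are 4781 of all 16950 bodies. That length class has the widest spread of changes, with 10th and 90th percentiles of -24.8 and -7.28 points.

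At the other end, the body of Nefm (chr14:68120546-68124003), which encodes a neurofilament subunit, had 61.6% and 61.4% at day 25, against 63.7% and 63.3% at t=0, and kept 96.9%. Its adjusted p was 0.454, and the wild type had 66.5% at day 25 and 65.8% at t=0. Pcdh18, a protocadherin gene, kept 93.7%, but N9 was higher at day 25 (56.1% at day 25, 55.05% at t=0) and N5 lower (47.3% at day 25, 55.3% at t=0). The others in this group were Vmn2r124, Cyp4a32, Lrtm1, B020011L13Rik, Sftpa1 and Vnn3, which kept 88.8% to 93.02%. Among them Vnn3 (adjusted p = 0.000267) and Lrtm1 (adjusted p = 0.0471) fell by the test, and Lrtm1 did not pass without N5 at day 25 (adjusted p = 0.102), N9 at day 25 (0.143) or N5 at t=0 (0.326). Sftpa1 (adjusted p = 0.069) passed without N5 at day 25 (0.0246), without N9 at t=0 (0.0255) and with the clone as a replicate block (0.049).

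**Figure D5:**
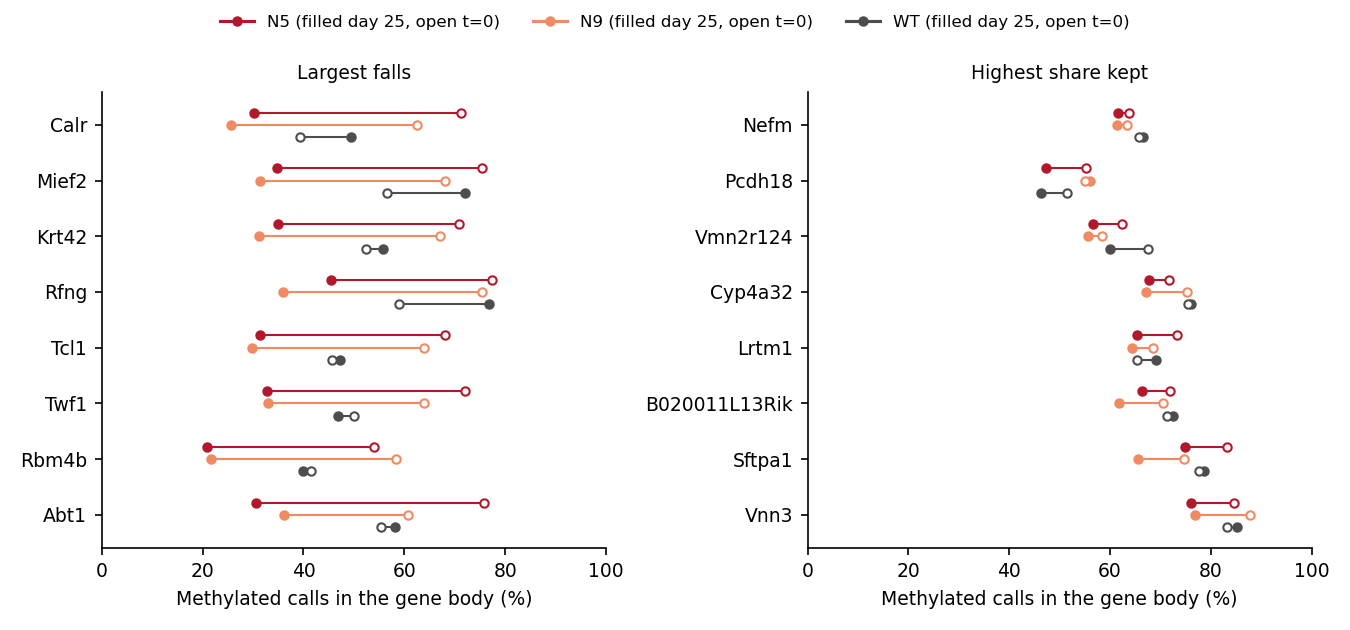
Methylated calls in gene bodies of clones N5 and N9 and the wild type (filled at day 25, open at t=0), for the 8 bodies with the largest falls (left) and the 8 with the highest share kept (right). On the left the clones' filled and open points lie 24.5 to 45.2 points apart, and on the right Nefm has the highest share kept as a mean of the clones.

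Among gene ends with 60 or more CpGs, the largest falls were at Nos1, Sohlh2, 1700024J04Rik, Pik3cd and Apba3. The window of Nos1 (chr5:117865839-117867839, 65 CpGs), the neuronal nitric oxide synthase gene, had 24.2% and 28.1% at day 25, against 65.1% and 64.9% at t=0 (adjusted p = 0.000114). The wild type had 63.0% at day 25 and 60.8% at t=0, and the change of the clones differed from it (adjusted p = 0.0309). The window of Sohlh2 (chr3:55181044-55183044, 69 CpGs), a germ cell transcription factor gene, had 16.8% and 21.1% at day 25, against 54.0% and 51.1% at t=0 (adjusted p = 0.000276), while the wild type had 44.9% at day 25 and 28.0% at t=0. 1700024J04Rik fell by 31.8 points in the clones, but the wild type was lower at day 25 too, with 36.6% at day 25 and 70.2% at t=0. The Pik3cd and Apba3 windows lie 49540 and 5075 bp from the listed starts. At its transcription start Pik3cd averaged 4.87% at day 25 and 10.8% at t=0 (edgeR adjusted p = 0.0164), and Apba3 did not pass (adjusted p = 0.185).

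Among ends with 20 to 59 CpGs the largest falls were at Msln, Ceacam19, Gm37116, Ldlrad2 and Casq2, of 38.8 to 41.2 points. The window of Msln (chr17:25753378-25755378, 25 CpGs), the mesothelin gene, had 20.0% and 25.9% at day 25, against 63.3% and 65.1% at t=0 (adjusted p = 0.000284), with 38.5% at day 25 and 32.7% at t=0 in the wild type. Casq2, which encodes the calcium-binding calsequestrin of heart muscle, had 29.8% and 17.4% at day 25, against 59.5% and 65.2% at t=0 (adjusted p = 0.00014). Among ends with under 20 CpGs they were Olfr961, Gm47679, Lce1c, Pramel6 and Zbtb11, of 39.5 to 41.9 points on 31 to 65 calls in the shallowest library. Gm47679 did not pass without N5 at day 25 (adjusted p = 0.101) or N5 at t=0 (0.095), nor at its transcription start (0.856). Lce1c, of the late cornified envelope family of skin, had 50.8% and 37.5% at day 25, against 84.2% and 85.3% at t=0 (adjusted p = 0.000372). The Zbtb11 window lies off the annotated start, where levels were 0.534% at day 25 and 1.03% at t=0 on average (adjusted p = 0.348).

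The 3 ends that rose were near zero at t=0. Rbm4b, an RNA-binding protein gene, had 1.02% and 0.79% at day 25, against 0% in both clones at t=0 (edgeR adjusted p = 0.0138), although its body was among those with the largest falls. Hmgcs1, of cholesterol synthesis, had 3.04% and 3.01% at day 25, against 1.12% and 1.30% at t=0 (adjusted p = 0.0459), with 7.42% at day 25 and 4.40% at t=0 in the wild type. Mnat1, of the CDK-activating kinase, had 1.66% and 0.33% at day 25, against 0.15% and 0.14% at t=0 (adjusted p = 0.0213). With 1 library left out, Hmgcs1 did not pass in any of the 4 fits (adjusted p 0.105 to 0.155). Rbm4b did not pass without N5 at day 25 (0.0669), N5 at t=0 (0.0649) or N9 at t=0 (0.0741). Mnat1 did not pass without N5 at day 25 (0.586), N5 at t=0 (0.0879) or N9 at t=0 (0.1), nor by limma (0.0635), and its window at the transcription start had a log odds ratio of the opposite sign (adjusted p = 0.169). The 5 ends that kept most, Prl2b1, Olfr10, Omd, Olfr862 and Tmprss11f, had 11 to 16 CpGs and kept 107% to 112% of their level, none passing the test (adjusted p 0.547 to 0.924) and each resting on 31 to 44 calls in its shallowest library. The window at the transcription start of Prl2b1, 7501 bp from its gene end window, fell (adjusted p = 0.00881). The start window of Mnat1 lies 11532 bp from its gene end window.

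Of the tiles, the largest fall was at chr17:31780001-31790000, which overlaps no gene of the table, with 34.9% and 34.0% at day 25, against 73.4% and 72.7% at t=0 (adjusted p = 8.76e-11) and 74.1% at day 25 and 69.6% at t=0 in the wild type. A tile over Rftn1 and Gm52302 (chr17:50030001-50040000) had 34.8% and 41.2% at day 25, against 76.6% and 75.2% at t=0. Tiles that kept most held 100.9% to 103.8% of their level and included 1 on chromosome 8 (chr8:51000001-51010000), with 62.7% and 63.3% at day 25 against 63.2% and 58.4% at t=0. The 2 tiles that rose, named after their values were seen, overlap Tc2n on chromosome 12 (19.2% and 22.3% at day 25, 12.5% and 16.2% at t=0) and the genes 2410017I17Rik, Gm6659 and Gm8909 on chromosome 17 (66.7% and 47.2% at day 25, 33.6% and 36.6% at t=0), with 51 calls in the shallowest library of the chromosome 17 tile.

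The lists of genes were read against the background of 40.4% of all ends falling. The change of the clones differed from the wild type's at few listed ends, beside 2.11% of all ends. These were 1 of 5 writers, 1 of 6 imprint protectors, 1 of 22 germline and 1 of 18 neuroectoderm ends. There were 0 of 6 demethylation enzymes, 0 of 22 pluripotency, 0 of 33 imprinted, 0 of 14 housekeeping and 0 of 20 fibroblast ends. Of the writers of methylation, 4 of 5 ends fell. The window of Dnmt1 (chr9:20906206-20908206), the maintenance methyltransferase, lies 52682 bp from its listed start. The window had 60.3% and 53.2% at day 25, against 74.1% and 79.9% at t=0 (adjusted p = 0.00515), and 85.3% at day 25 and 67.9% at t=0 in the wild type. At the outermost listed start of Dnmt1, the only one read, methylation was also high. The mean there was 58.9% at day 25 and 76.7% at t=0 (adjusted p = 0.00752). Whether these cells use that start was not tested. The Dnmt3l window, at its start, had 41.3% and 40.2% at day 25, against 62.6% and 56.3% at t=0 (adjusted p = 0.0127). The wild type was lower at day 25 there too, with 40.6% at day 25 and 54.7% at t=0. The Dnmt3a window lies away from its listed start and averaged 50.8% ± 1.13 at day 25 and 67.3% ± 1.13 at t=0 (SD of 2 clones, adjusted p = 0.0173). In the wild type that window had 62.4% at day 25 and 70.8% at t=0. The start of Dnmt3a itself averaged 0.187% at day 25 and 1.19% at t=0. Uhrf1 had 1.913% and 1.35% at day 25, against 6.37% and 3.11% at t=0 (adjusted p = 0.0234). Dnmt3b had 1.98% and 2.24% at day 25, against 3.02% and 5.21% at t=0, which did not pass (adjusted p = 0.0843). With 1 library left out the adjusted p reached 0.0932 for Dnmt3a (without N5 at day 25), which passed in none of the 4 fits, 0.0956 for Dnmt3l and 0.237 for Uhrf1 (each without N5 at t=0, and also past 0.05 without N5 or N9 at day 25), and 0.0643 for Dnmt1 (without N9 at t=0, and 0.0542 without N9 at day 25). By limma Dnmt3a (0.0526), Dnmt3l (0.0531) and Uhrf1 (0.0663) did not pass.

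Of the demethylation enzymes, 3 of 6 ends fell, among them Apobec1 (6.56% and 4.33% at day 25, 18.4% and 12.0% at t=0) and Tet1 (0.47% and 0.95% at day 25, 2.48% and 2.01% at t=0). Without N5 at t=0 the adjusted p of Apobec1 was 0.0685 and that of Tet1 0.135. Apobec1 (0.0549) also did not pass without N9 at day 25, nor did Tet1 without N5 at day 25 (0.207) or N9 at t=0 (0.066), nor at its transcription start (0.0506). Of the factors that protect imprints, 2 of 6 fell. Zfp57, a zinc finger protein that binds methylated imprints, had 15.3% and 9.68% at day 25, against 44.7% and 37.6% at t=0 (adjusted p = 0.000341), and its change differed from the wild type's (adjusted p = 0.0451). That window lies 9566 bp from the listed start of Zfp57, where the mean was 22.4% at day 25 and 54.8% at t=0 (edgeR adjusted p = 0.000311). At that start the wild type had 34.5% at day 25 and 45.9% at t=0, and the difference from its change did not pass (edgeR adjusted p = 0.182). Dppa3, which shields maternal methylation in the fertilised mouse egg, had 7.60% and 3.42% at day 25, against 14.4% and 16.5% at t=0 (adjusted p = 0.00511). It did not pass without N9 at day 25. Trim28, a corepressor, had 0.056% and 0.331% at day 25, against 0.419% and 0.654% at t=0 (adjusted p = 0.111).

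Of 22 pluripotency ends 12 fell, with a median change of -3.77 points beside -3.88 over all ends. Nanog, a core pluripotency factor gene, had 3.04% and 0.78% at day 25, against 10.8% and 10.0% at t=0 (adjusted p = 0.000951), and 12.2% at day 25 and 12.5% at t=0 in the wild type. Tcl1 had 4.41% and 4.56% at day 25, against 28.4% and 16.2% at t=0 (adjusted p = 0.000197), and Tdgf1, a Nodal co-receptor gene, 2.73% and 1.56% at day 25, against 8.98% and 7.74% at t=0 (adjusted p = 0.00232). The wild type was lower at day 25 too at both. It had 14.9% at day 25 and 28.5% at t=0 at Tcl1, and 6.71% at day 25 and 11.2% at t=0 at Tdgf1. Dppa4 had 5.56% and 1.22% at day 25, against 19.2% and 11.8% at t=0 (adjusted p = 0.00259). Pou5f1, which encodes Oct4, had 27.1% and 20.5% at day 25, against 28.6% and 31.2% at t=0, and did not pass (adjusted p = 0.275). Esrrb had 42.6% and 41.8% at day 25, against 56.9% and 54.8% at t=0 (adjusted p = 0.0519), and Sox2 1.15% and 1.98% at day 25, against 2.54% and 3.30% at t=0 (adjusted p = 0.0733). Of the pluripotency markers, Nanog, Sox2, Tdgf1 and Dppa4 were under 20% in both clones at both stages.

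Germline genes, many of whose promoters are methylated outside the germline, fell at 19 of 22 ends, with a median of 30.6% at day 25 and 50.2% at t=0. Besides Sohlh2, Rpl10l had 8.65% and 10.9% at day 25, against 39.5% and 27.2% at t=0 (adjusted p = 0.000432), and Sycp1, of the synaptonemal complex, 19.2% and 18.3% at day 25, against 33.6% and 48.1% at t=0 (adjusted p = 0.00166). In the wild type Rpl10l was lower at day 25 too (33.3% at day 25, 51.25% at t=0), while Sycp1 was higher (43.6% at day 25, 34.2% at t=0). Of these 22 ends, 1 was under 10% at t=0, against 9759 of the 19549 ends in all.

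Imprinted genes fell at 16 of 33 ends, with a median change of -7.79 points. The Peg3 window had 9.94% and 5.29% at day 25, against 28.0% and 20.7% at t=0 (adjusted p = 0.00206), and 18.9% at day 25 and 18.7% at t=0 in the wild type. Igf2, a growth factor gene, had 60.4% and 68.6% at day 25, against 87.0% and 84.0% at t=0 (adjusted p = 0.00185), and Phlda2 0.82% and 1.00% at day 25, against 5.08% and 3.70% at t=0 (adjusted p = 0.00216, and 0.28 at its transcription start). Where the windows lie at transcription starts, 9 of 23 imprinted starts fell, beside 36.9% of all 15389 start windows.

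Neuroectoderm genes fell at 4 of 18 ends, all 18 of which were under 10% at t=0 (median -0.52 points). Otx2 had 1.60% and 1.43% at day 25, against 4.92% and 4.54% at t=0 (adjusted p = 0.0139, and 0.0584 to 0.0707 without N5 at day 25, N9 at day 25 or N5 at t=0). Lhx2 had 1.32% and 4.68% at day 25, against 5.92% and 8.00% at t=0 (adjusted p = 0.0256, and 0.472 without N5 at day 25, 0.128 without N9 at t=0, 0.0934 by limma and 0.0503 at its transcription start). Tubb3 had 1.24% and 1.16% at day 25, against 2.85% and 2.83% at t=0 (adjusted p = 0.0388), and did not pass in any fit without 1 library (0.109 to 0.136). Housekeeping genes fell at 4 of 14 ends, among them Actb with 11.8% and 13.7% at day 25, against 33.8% and 37.1% at t=0 (adjusted p = 0.000808), and 17.1% at day 25 and 25.15% at t=0 in the wild type. Rplp0 and Tbp fell too (adjusted p = 0.00373 and 0.0231), but without N5 at t=0 had 0.0815 and 0.168, and Tbp 0.179 without N9 at day 25. Fibroblast genes fell at 3 of 20 ends, which were 1 of the 7 ends at 50% or more at t=0, 0 of the 4 at 10 to 50% and 2 of the 9 under 10%. The 3 were Thy1 (3.65% and 3.30% at day 25, 8.71% and 7.58% at t=0), Twist2 (1.03% and 2.31% at day 25, 2.56% and 6.34% at t=0) and S100a4 (42.4% and 38.2% at day 25, 52.8% and 59.2% at t=0). None of these 3 passed without N5 at day 25 (adjusted p 0.0768, 0.272 and 0.0725), and each lost its call without at least 1 other clone library (0.0696 to 0.319). By limma Twist2 (0.0751) and S100a4 (0.0776) did not pass. Col1a1, the main collagen gene of fibroblasts, had 27.9% and 23.9% at day 25, against 28.2% and 16.3% at t=0 (adjusted p = 0.445), and Col1a2 and Col3a1 did not pass either (adjusted p = 0.880 and 0.897). In the bodies, falls were called at 5 of 5 measured writers, 6 of 6 demethylation enzymes, 6 of 6 imprint protectors, 18 of 18 pluripotency bodies, 21 of 21 germline, 26 of 26 imprinted, 18 of 18 fibroblast, 12 of 15 neuroectoderm and 9 of 13 housekeeping bodies, beside 97.2% of all bodies.

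The native Mir203 window (chr12, 127 CpGs), from which the induced microRNA takes its name, had 7.05% and 5.01% at day 25, against 14.0% and 13.8% at t=0 (adjusted p = 0.00886, and 0.0781 without N9 at day 25), and 12.0% at day 25 and 8.38% at t=0 in the wild type. The table does not place the inserted copy, so calls from it cannot be told from those of the native gene. Whether the change of the clones at this window differed from the wild type's did not pass the threshold (adjusted p = 0.0947).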

How the data were processed

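Genomic DNA of 12 libraries was oxidised, bisulfite converted and sequenced, per the labels' protocols. BWA, Picard 1.91 and the build mm10 appear in the submitters' processing notes, with no methylation caller named there. The authors deposited 2 whole-number counts for each library, methylated calls and total calls (coverage), at 21875444 CpG positions, of which 2392630 have no call in any library. Each deposited wild-type stage has 2 column pairs, also counts, named as replicates 1 and 2, while its 2 samples share 1 label and differ by lane. They were summed and counted as 1 library. On chromosome 1 their mean squared deviation over counting error was 0.966 at t=0 and 0.969 at day 25. Clones N5 and N9 had 1.045 at t=0 and 1.048 at day 25. The ratio was thus close to 1 for separate lines too, and cannot show that 2 column pairs are 1 library.

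Levels are methylated calls over all calls. Tiles needed 30 calls, gene ends 10 and gene bodies 30 in every library, with 5 or more CpGs in ends and bodies, and the first 3000000 bp of each chromosome were left out. Gene positions and promoter sequences came from RefSeq tables for GRCm38.p6. The gene table has no strand, so a gene end is the CpG-denser of both ends. Windows and profiles at transcription starts used the outermost listed start of each coding gene. Tests used edgeR 4.0.16 (quasi-likelihood, library intercepts, 8 groups, 4 residual degrees of freedom) on autosomes and chromosome X together. Limma 3.58.1 served as an alternative, and both ran in R 4.3.3. Levels and figures were made with Python 3.11.15, numpy 2.4.6, pandas 2.3.3 and matplotlib 3.10.9. The sorting of tiles by the other clone was tested on simulated data.

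Named ends were the 5 largest falls that passed in each class of CpG number, every end that rose, the 5 with the highest share kept, the 3 lowest p of each of 9 lists, and fixed genes and markers. Named bodies were 8 falls and 8 with the highest share kept, and named tiles 3 of each. Of the features so chosen, 2 are not reported here. The clones and the lists were chosen with earlier results of these data known. Clone numbers pair the stages because N5 and N9 are the same lines at both, per the labels.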

Additional observations from a re-analysis of the deposited data

Results flagged for a closer look

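The autosomal level changed by -16.9 points in the clones, lower in both, and was 0.49 points higher in the wild type. This difference in direction was not tested. By the edgeR test of the difference, the change in the clones differed from that in the wild type at 413 gene ends, 14751 gene bodies and 161316 tiles.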

How the results depend on the processing

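The autosomal change of -16.89 points was -16.24 as an unweighted mean over CpGs, and -17.29 and -16.5 for single clones. The gain in share kept between tiles at 30 to 40% and at 80 to 90% was 13.84 points. It was 11.89 with tiles sorted by the clone's own level, 16.15 by the wild-type level, 21.36 in shorter tiles and 32.86 between single CpGs, an alternative chosen after seeing the data. The density difference of -11.47 points was -11.81 within 200 bp and -7.18 within 1000 bp. At 60 to 70% it was -14.12, against -12.67 with wild-type levels and -7.76 in 500 bp bins, chosen after seeing the data. The context difference kept its sign and size in all settings tried.

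Gene ends called numbered 7907, against 4845 by limma and 4055 to 4461 with 1 clone library left out. Ends differing from the wild type numbered 413, against 0 by limma (4169 lower and 93 higher at an unadjusted p under 0.05), 128 at transcription starts and 7 to 131 with 1 library left out. Counts of bodies and tiles stayed within 1.5 times in all settings tried. At transcription starts the log odds ratio reversed for Mnat1 (-0.72) and Prl2b1 (-1.73). These start windows are other regions, 11532 bp (Mnat1) and 7501 bp (Prl2b1) from the gene end windows. Among the named features, Mnat1 and 6 other called ends did not pass there. By limma 7 called ends did not pass. With the clone as a replicate block, which the pairing of the lines allows, 7960 ends, 16473 bodies and 223835 tiles were called, and 381, 14654 and 160315 differed from the wild type. Among the named features the block changed the call of Sftpa1 alone.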
